A study of Mus musculus with 4 samples.

Results

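Pressure overload of the mouse left ventricle was followed at promoters by chromatin immunoprecipitation and sequencing with an antibody against acetylated histone H3. The tested library came from mice with transverse aortic constriction (TAC, a surgical narrowing of the aorta) that received the solvent DMSO (TAC Veh). It was set against a library from sham-operated mice that received DMSO (Sham Veh). All mice were male C57BL6 aged 10 to 12 weeks, injected 2 times a day for 4 weeks. The other pair of libraries, TAC TSA and Sham TSA, came from mice given the histone deacetylase inhibitor trichostatin A at 0.6 mg per kg per day, and is used below for values side by side. Each group had 1 library, so no value has a replicate. An earlier deposit is cited in the labels of the sham libraries but not in those of the TAC libraries. Surgery and a possible separate preparation therefore cannot be told apart.

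The members were the promoters with a mean raw count of at least 10 over the 4 libraries, 22831 of the 23627 genes matched to a name, from 31594 RefSeq IDs. The highest mean count left out was 9.75, and 29 promoters lay at exactly 10. Acetylation of histone tails loosens chromatin, and acetylated H3 marks promoters that are open or in use. The adult heart is known to burn mainly fatty acids and to contract with alpha myosin. Under pressure overload it is known to enlarge, to turn on genes of the fetal heart, and to gain matrix and macrophages. The ventricle holds cardiomyocytes, fibroblasts, endothelium and leukocytes, and in such bulk tissue fewer cells of a type and less of the mark per cell cannot be told apart.

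The letters of 5 promoters and 10 microRNAs are printed as examples, and a match to a site is only a match of letters. They are RefSeq sequences of the GRCm38.p6 build, read 5′ to 3′, and each promoter covers the 250 bases before the annotated start. Myh6 and Pln were lower in TAC Veh, and Thbs4, Dio2 and Acta1 were higher. Capitals mark the TATA box (TATAAA), the MCAT element of muscle genes (CATTCC), the GATA element (GATAAG), the E-box CAGCTG or the CArG box of serum response factor, on either strand.
Myh6, chr14:54966608-54966857, minus strand: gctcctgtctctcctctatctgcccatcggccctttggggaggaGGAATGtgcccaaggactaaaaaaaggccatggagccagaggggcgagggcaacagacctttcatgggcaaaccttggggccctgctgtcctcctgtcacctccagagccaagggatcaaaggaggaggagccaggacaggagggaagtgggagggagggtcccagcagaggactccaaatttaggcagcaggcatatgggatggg
Pln, chr10:53337436-53337685, plus strand: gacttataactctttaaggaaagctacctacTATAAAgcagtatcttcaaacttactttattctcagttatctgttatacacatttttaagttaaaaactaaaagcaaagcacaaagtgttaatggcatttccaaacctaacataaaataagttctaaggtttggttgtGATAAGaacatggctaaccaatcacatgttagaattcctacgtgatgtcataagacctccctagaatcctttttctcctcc
Thbs4, chr13:92794819-92795068, minus strand: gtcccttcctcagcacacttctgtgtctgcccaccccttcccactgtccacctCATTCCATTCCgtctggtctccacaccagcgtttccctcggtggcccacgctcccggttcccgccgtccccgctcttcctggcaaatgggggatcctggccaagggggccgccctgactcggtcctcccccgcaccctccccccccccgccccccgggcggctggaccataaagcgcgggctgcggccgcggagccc
Dio2, chr12:90739039-90739288, minus strand: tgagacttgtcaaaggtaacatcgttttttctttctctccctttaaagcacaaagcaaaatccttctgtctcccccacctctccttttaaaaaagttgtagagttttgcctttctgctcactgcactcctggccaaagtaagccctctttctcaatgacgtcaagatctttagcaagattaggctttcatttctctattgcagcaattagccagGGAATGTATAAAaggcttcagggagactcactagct
Acta1, chr8:123894776-123895025, minus strand: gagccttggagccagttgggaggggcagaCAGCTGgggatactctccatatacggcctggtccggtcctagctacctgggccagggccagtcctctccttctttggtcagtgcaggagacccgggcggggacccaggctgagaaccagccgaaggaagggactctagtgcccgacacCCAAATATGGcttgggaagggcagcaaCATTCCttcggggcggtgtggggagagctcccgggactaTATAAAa
The Acta1 stretch held a CArG box, an MCAT element, an E-box and a TATA box. Thbs4 held 19 CpG pairs in these letters, against 2 in Myh6, 1 in Pln, 2 in Dio2 and 9 in Acta1.

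The mature microRNAs are shown with the seed, bases 2 to 8, in capitals, because the seed decides which messages a microRNA pairs with.
miR-208a-3p: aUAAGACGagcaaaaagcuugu
miR-208b-3p: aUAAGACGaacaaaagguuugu
miR-499-5p: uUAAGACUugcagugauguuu
miR-21a-5p: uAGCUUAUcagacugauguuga
miR-223-3p: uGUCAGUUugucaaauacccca
miR-101c: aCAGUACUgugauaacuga
miR-667-3p: uGACACCUgccacccagcccaag
miR-300-3p: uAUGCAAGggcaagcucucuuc
miR-376a-3p: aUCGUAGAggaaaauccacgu
miR-376b-3p: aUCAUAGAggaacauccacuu
The microRNAs miR-208a and miR-208b, made from introns of the myosin genes Myh6 and Myh7, share a seed. The last 4 belong to the imprinted cluster on chromosome 12 described below.

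Kept promoter counts summed to 6337086 in TAC Veh and 6860402 in Sham Veh, with a median of 229 and 247 counts per promoter. After TMM scaling, which sets the typical ratio between libraries to equality, a promoter with equal acetylation is expected to have 0.938 times as many counts in TAC Veh as in Sham Veh. Promoters of olfactory and vomeronasal receptors, which the heart does not use, held 0.495% of the counts in TAC Veh (exact binomial 95% interval 0.49 to 0.501) and 0.413% in Sham Veh (0.408 to 0.418). Ventricular genes were well above the mean receptor promoter of 24.55 counts in TAC Veh and 22.16 in Sham Veh. Myl2, the ventricular myosin light chain, had 308 counts in TAC Veh and 477 in Sham Veh, and the ventricular factor Irx4 had 158 and 229 in the same order. Log2 ratios below are TAC Veh over Sham Veh with an exact 95% interval that covers counting error only.

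Promoters were called apart where the libraries differed by 1.5-fold or more and the interval left out equality. Of 22831 promoters, 440 (1.93%) were apart and higher in TAC Veh and 133 (0.583%) were apart and lower, 2.51% in all. The split depended on how strongly a promoter was counted. Among the 15665 promoters with a mean count of at least 100, called well counted here, 32 (0.204%) were higher and 75 (0.479%) were lower. Their log2 ratios had a standard deviation across promoters of 0.17, and 99.3% lay within 1.5-fold.

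The excess of higher calls lay at weak promoters. In the lowest of 10 equal bins of mean count, 10.0 to 28.25 counts, the median log2 ratio was 0.30, with 176 promoters higher and 10 lower. In the next bin the median was 0.16, with 154 higher and 19 lower, and in the highest bin it was −0.05, with 1 higher and 0 lower. Scaling by a loess curve through mean count gave 193 higher (0.845%) and 250 lower (1.1%), 1.94% in all, and among well-counted promoters 35 (0.223%) and 73 (0.466%). Scaling on the receptor promoters lowered every ratio by 0.24 and gave 119 higher (0.521%) and 866 lower (3.79%), 4.31% in all. Subtracting the mean receptor count left 19661 promoters with a value, of which 203 were higher and 238 lower. Of the 75 well-counted lower promoters, 72 were apart and lower with loess scaling and 75 with receptor scaling. Of the 32 well-counted higher promoters, 30 were apart and higher with loess scaling and 3 with receptor scaling, those of Serpina3n, Dio2 and Cilp.

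**Figure D1:**
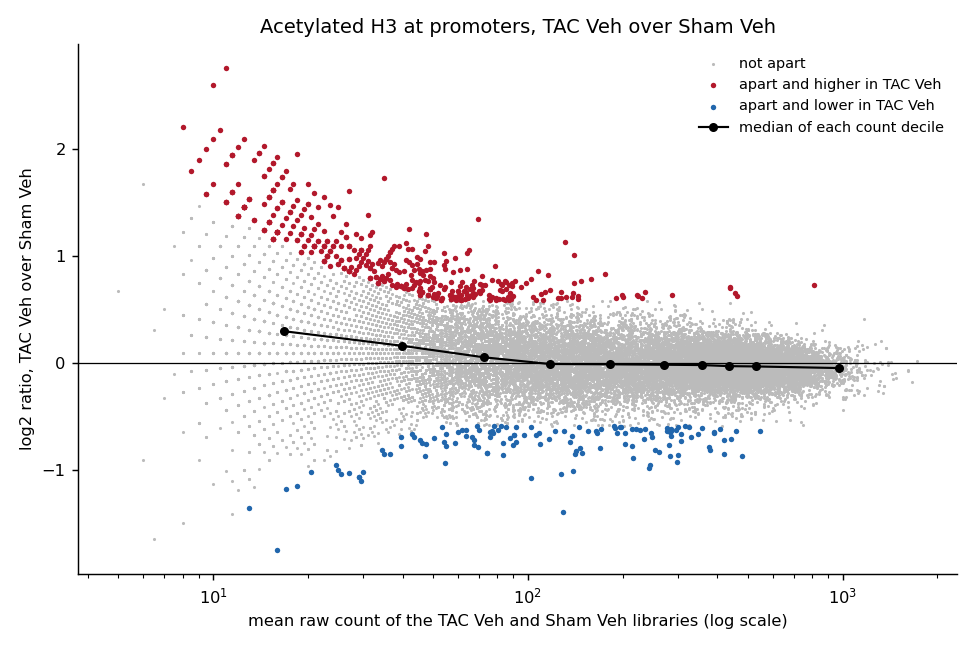
Each point is 1 promoter, placed by its mean raw count in the TAC Veh and Sham Veh libraries (x, log scale) and its log2 ratio of TAC Veh over Sham Veh (y). Red points are the 440 promoters apart and higher, blue points the 133 apart and lower, and the black line joins the medians of 10 count bins (by the mean of 4 libraries), which run from 0.30 at the weakest promoters to −0.05 at the strongest.

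Promoters of several contractile genes of the cardiomyocyte were apart and lower in TAC Veh, while most members of the filament lists were not apart. Of 13 cardiomyocyte markers 7 were apart and lower, none was apart and higher, and the median log2 ratio was −0.59, against −0.001 for all promoters. Myh6, the adult alpha myosin heavy chain, had 289 counts in TAC Veh and 553 in Sham Veh (log2 ratio −0.84, −1.05 to −0.64). Its neighbour Mhrt, an antisense RNA of the same locus, had 326 and 633 counts (−0.87, −1.06 to −0.67), and both promoters can share reads. Summed over the list, cardiomyocyte marker promoters held 504.7 CPM (scaled counts relative to the kept total) in TAC Veh and 732.5 in Sham Veh, and no marker had 0 counts in either library. Nppa, the atrial natriuretic peptide that the loaded ventricle is known to express, was the only 1 of the 13 with a ratio above 0, with 137 counts in TAC Veh and 108 in Sham Veh (0.44, 0.06 to 0.81, not apart).

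Proteins of the thin filament, which slides along myosin, included 4 of 16 promoters apart and lower and 1 apart and higher. Cardiac actin Actc1 had 205 counts in TAC Veh and 396 in Sham Veh (−0.86, −1.11 to −0.61), while skeletal actin Acta1, a fetal actin of the heart, had 181 and 113 (0.77, 0.42 to 1.12). The actin promoters thus stood on opposite sides. The thin filament proteins Lmod3 (−0.75) and Lmod2 (−0.63) and cardiac troponin T, Tnnt2, with 309 counts in TAC Veh and 504 in Sham Veh (−0.61), were the other members apart. Of 18 thick filament promoters, Myh6 and the cardiac myosin light chain kinase Mylk3, with 197 and 398 counts (−0.92, −1.18 to −0.67), were apart. Myh7, the fetal beta myosin, had 255 counts in TAC Veh and 217 in Sham Veh (0.33, 0.06 to 0.59) and was not apart. In the list of Z-disc and stretch sensing genes 3 of 26 were apart and lower: Popdc2, a membrane protein that binds cyclic AMP, with 304 and 533 counts (−0.72), the stretch sensor Csrp3 (−0.63) and alpha-actinin Actn2 (−0.62). The desmosomal cadherin Dsg2, which ties cardiomyocytes to each other, had 99 counts in TAC Veh and 186 in Sham Veh (−0.82, −1.18 to −0.46) and was the only 1 of 15 intercalated disc promoters apart. None of 20 costamere and dystrophin complex promoters was apart, although 17 had ratios below 0 and the median was −0.20.

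A few electrical and calcium genes were apart and lower. Of 21 potassium channel promoters 18 had ratios below 0, with a median of −0.33, but only Kcnj3, the acetylcholine-gated channel subunit, was apart, with 80 counts in TAC Veh and 175 in Sham Veh (−1.04, −1.44 to −0.65). Kcnj11, the pore of the ATP-sensitive channel, fell just short of 1.5-fold with 250 and 398 counts (−0.58, −0.81 to −0.35). Among 19 calcium release and uptake genes of the sarcoplasmic reticulum 3 were apart and lower: the release channel Ryr2 with 171 counts in TAC Veh and 298 in Sham Veh (−0.71), sarcalumenin Srl with 211 and 361 (−0.68), and phospholamban Pln, the brake of the calcium pump, with 250 and 402 (−0.59), which was not apart with loess scaling. The wider channel families were near equality, with medians of 0.03 for 97 potassium, 0.06 for 54 calcium and 0.19 for 13 sodium channel promoters. Pacemaking and conduction genes had 6 of 12 ratios below 0 and none apart (median −0.02). Of 15 voltage-gated calcium and sodium channel promoters 9 had ratios below 0 (median −0.10) and 1 was apart. That one, the L-type channel Cacna1c, had 222 counts in TAC Veh and 392 in Sham Veh (−0.73, −0.97 to −0.49) at the promoter with the most counts. Its other promoter had 282 and 318 counts (−0.08, −0.32 to 0.16). Of 29 receptor and peptide genes of adrenergic, muscarinic and angiotensin signalling 25 had ratios below 0 (median −0.17) and none was apart. The closest was Corin, the protease that activates natriuretic peptides, with 202 counts in TAC Veh and 321 in Sham Veh (−0.58, −0.84 to −0.32).

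Regulators of the cardiac programme were among the lower promoters. Of 24 cardiac transcription factors 4 were apart and 22 had ratios below 0 (median −0.20). Tbx5, a T-box factor of heart development, had 176 counts in TAC Veh and 330 in Sham Veh (−0.81, −1.09 to −0.55). The muscle coactivator Myocd had 182 and 313 (−0.69), the methyltransferase Smyd1 had 143 and 240 (−0.65), and the homeodomain factor Nkx2-5 had 212 and 352 (−0.64). The whole Tbx family of 16 had a median of −0.04, with Tbx15 apart and higher at 115 counts in TAC Veh and 75 in Sham Veh (0.71). Ppara, the nuclear receptor that drives fatty acid oxidation, had 293 and 490 counts (−0.65, −0.86 to −0.44) and was the only 1 of 20 metabolic nuclear receptors and partners apart.

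The list with the second lowest median was that of ubiquitin ligases and muscle atrophy (−0.37), in which 19 of 20 ratios were below 0 and 4 were apart. Asb2, a ligase subunit of muscle, had 263 counts in TAC Veh and 493 in Sham Veh (−0.81, −1.04 to −0.60). The Kelch protein Klhl38 had 181 and 342 counts (−0.82, −1.09 to −0.56), and Trim63, the ligase MuRF1, had 145 and 232 (−0.59). Asb12 was apart on few counts, 18 in TAC Veh and 41 in Sham Veh. With loess scaling Trim63 was not apart and the other 3 were. Fbxo32, or atrogin-1, had 776 and 1032 counts (−0.32, −0.46 to −0.18) and did not reach 1.5-fold.

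Fatty acids are the main fuel of the adult heart, and genes of their uptake, storage and oxidation lay below equality. Of 22 uptake and storage promoters 3 were apart (median −0.31). Ces1d, a carboxylesterase that splits stored fat, was the lowest of all promoters by the interval bound nearest to equality, with 68 counts in TAC Veh and 190 in Sham Veh (−1.39, −1.81 to −0.98). The fatty acid transporter Cd36 had 258 and 436 (−0.66) at the promoter with the most counts, and the lipid droplet coat Plin4 had 344 and 570 (−0.64). Other Cd36 promoters had 253 counts in TAC Veh and 345 in Sham Veh (−0.35), and 191 and 301 (−0.56), and were not apart. Of 26 mitochondrial beta-oxidation promoters 23 had ratios below 0 (median −0.15), and Ucp3, an uncoupling protein of muscle, was apart with 192 counts in TAC Veh and 374 in Sham Veh (−0.87, −1.13 to −0.61). Acacb, whose product malonyl-CoA blocks fatty acid entry to mitochondria, had 102 and 174 counts (−0.68). Elsewhere in metabolism, the oxygen store myoglobin, Mb, had 272 counts in TAC Veh and 441 in Sham Veh (−0.60), the muscle glycolytic enzyme Pgam2 had 223 and 367 (−0.63), and alcohol dehydrogenase Adh1 had 89 and 190 (interval −1.38 to −0.63). None of 28 pyruvate and citric acid cycle promoters was apart (median −0.13).

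Respiratory chain families had medians slightly below 0 with few apart. Ratios were below 0 for 40 of 47 complex I promoters (median −0.10), 14 of 17 of complexes II and III (−0.05) and 14 of 17 of ATP synthase (−0.07), with none apart. With loess scaling these medians were −0.06, −0.03 and −0.05. All 2283 promoters with 478.75 to 588.25 mean counts, a range that includes the median counts of these families, had a median of −0.03. In complex IV 24 of 30 were below 0 (median −0.09, or −0.07 with loess scaling). There Cox8b, the muscle form of a subunit, was apart and lower with 208 counts in TAC Veh and 345 in Sham Veh (−0.64). Cox8c, a testis form, was apart and higher on 45 and 25 counts. Slc25a34, a mitochondrial carrier, had 265 and 487 counts (−0.79) and was the only 1 of 47 carriers apart.

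**Figure D2:**
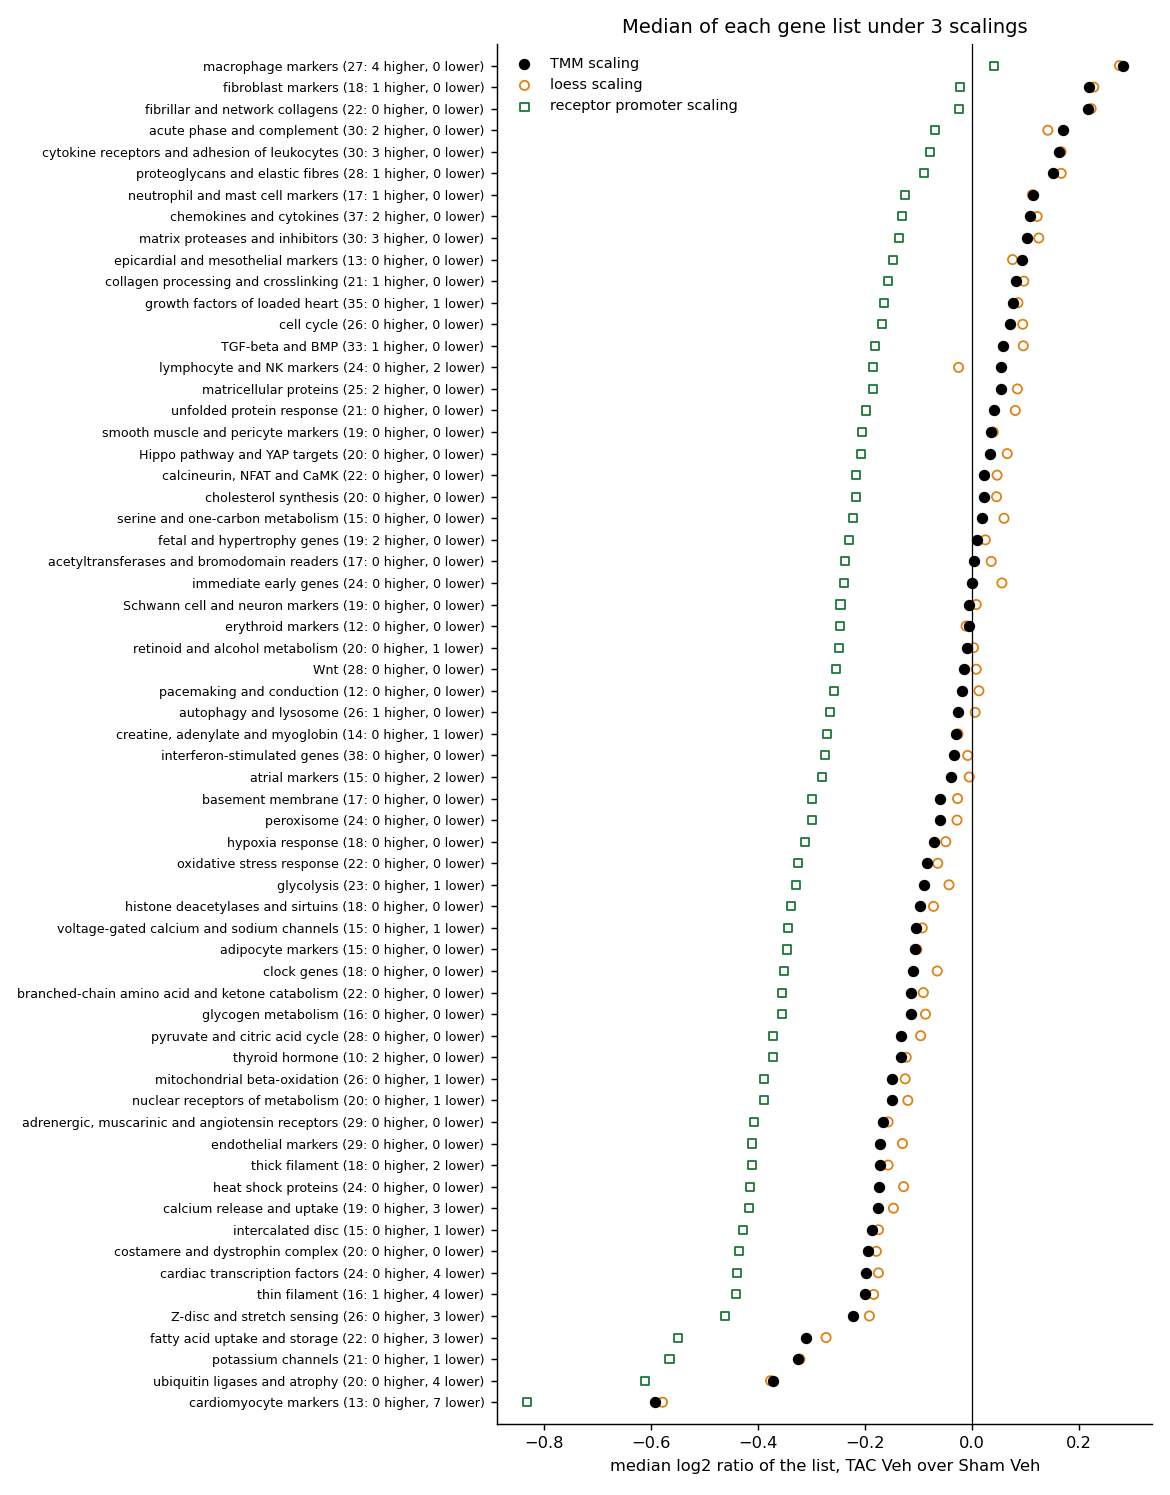
Rows are the 63 gene lists, with the number of promoters measured, apart and higher, and apart and lower, and x is the median log2 ratio of TAC Veh over Sham Veh. Cardiomyocyte markers were lowest (−0.59) and macrophage markers highest (0.28) with TMM scaling (black), and receptor scaling (green squares) moved every list left by 0.24. Loess scaling (orange) kept both ends of the order, at −0.58 and 0.28.

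Outside the lists, 44 of the 75 well-counted lower promoters remained. They included Tnni3k, a kinase that binds cardiac troponin I, with 63 counts in TAC Veh and 141 in Sham Veh (−1.07, −1.52 to −0.63), and the myosin chaperone Unc45b with 229 and 385 (−0.66). The glutamine transporter Slc38a3 had 322 and 562 counts (−0.71). Carbonic anhydrase Car4 (294 and 489, −0.64), the urocortin receptor Crhr2 (124 and 207, −0.65) and the orphan receptor Gpr22 (117 and 193, −0.63) were others. Of the 75, 30 belonged to the muscle, excitation, metabolic and cardiac regulator lists, which held 427 well-counted promoters, so 7.03% of those were apart and lower, against 0.479% of all well-counted promoters. None of the 75 was in a matrix or immune list. Of the 32 well-counted higher promoters 6 were in the matrix and immune lists, 2.35% of the 255 well-counted promoters there against 0.204% of all, and 22 were in no list. The lists were drawn up with results of these data known, so these shares are descriptions. At 5 places 2 well-counted neighbours were called together with nearly the same counts, among them Actc1 with the RNA gene C130080G10Rik and Fxyd5 with Mir7050, so calls are not all independent.

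**Figure D3:**
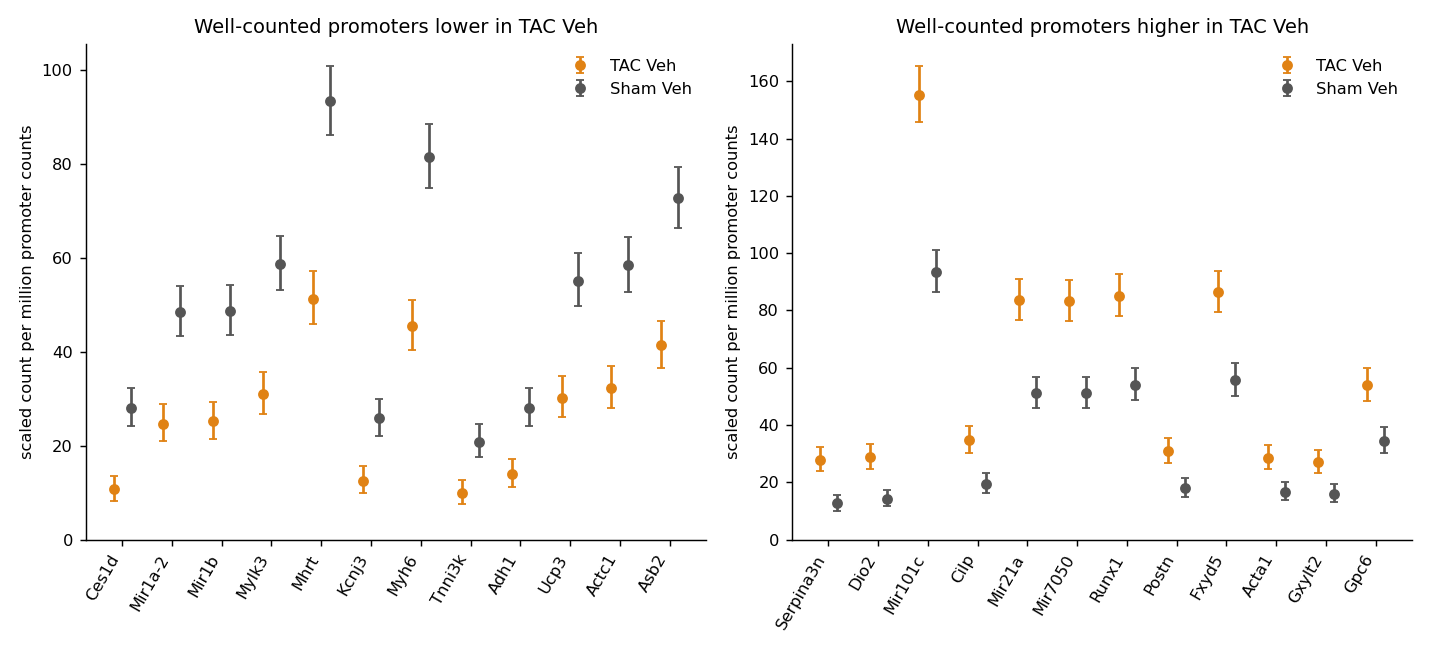
Points are scaled CPM of promoter counts (y) in the TAC Veh (orange) and Sham Veh (grey) libraries, with exact 95% Poisson bars, for the 12 well-counted promoters named first on each side. The 24 promoters were picked by the interval of their ratio, so bars that do not overlap follow from that choice. Mir101c in TAC Veh is the highest point, at 155 CPM.

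Single matrix genes were apart and higher. Medians were above 0 in the collagen, matricellular, proteoglycan and protease lists with TMM scaling and below 0 in all 4 with receptor scaling. The basement membrane list had 9 of 17 ratios below 0 and none apart (median −0.06), and none of 11 laminins (0.004) or 58 Adam and Adamts proteases (0.02) was apart. Thbs4, a matricellular glycoprotein of injured heart, had 98 counts in TAC Veh and 41 in Sham Veh (1.35, 0.81 to 1.91), and Postn, periostin of activated fibroblasts, had 196 and 121 (0.79, 0.45 to 1.13). They were the members apart among 25 matricellular genes. Cilp, a matrix protein of cartilage and heart, had 220 counts in TAC Veh and 132 in Sham Veh (0.83, 0.51 to 1.15). Of 22 fibrillar and network collagens 20 had ratios above 0 and the median was 0.22, but none was apart, with Col1a1 at 334 and 254 counts (0.49). Receptor scaling moved the median to −0.02, below equality. Enzymes that cut matrix and their inhibitors had 3 of 30 apart, Timp1 with 108 counts in TAC Veh and 70 in Sham Veh (0.72), Mmp8 with 86 and 57 (0.69) and Mmp3 with 46 and 25 (0.97). The latent TGF-beta binding protein Ltbp2 (271 and 189, 0.61), the collagen hydroxylase P4ha3 (106 and 73, 0.63), the microfibril protein Mfap5 (224 and 157, 0.60) and the adhesion protein Svep1 (266 and 183, 0.63) were also apart. With receptor scaling Thbs4 and Cilp were apart and higher, and the other matrix genes named here were not.

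Macrophage markers had the highest list median, 0.28, with 4 of 27 apart and higher. These were the pore-forming Mpeg1 with 152 counts in TAC Veh and 102 in Sham Veh (0.67), the protease Ctss with 169 and 119 (0.60), Ms4a6c with 86 and 55 (0.74), and the integrin Itgam with 102 and 72 (0.59), which was not apart with loess scaling. Summed over the list, macrophage marker promoters held 628.1 CPM in TAC Veh and 524.8 in Sham Veh, and no marker had 0 counts. With receptor scaling the median was 0.04, no marker was apart and higher and 1 was apart and lower. Trem2, a lipid-sensing receptor of macrophages, had 131 and 89 counts (0.65), Csf2rb, the shared receptor chain for myeloid growth factors, had 156 and 108 (0.62), and the chemokine Ccl12 had 104 and 65 (0.77). Ptgs2, the inducible cyclooxygenase, had 150 counts in TAC Veh and 105 in Sham Veh (0.61), with its antisense Ptgs2os on nearly the same reads.

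Other cell types differed in direction. Fibroblast markers had a median of 0.22 (−0.02 with receptor scaling) and 15 of 18 ratios above 0, with Mfap5 apart, and summed to 833.2 CPM in TAC Veh and 708.6 in Sham Veh. Endothelial markers had a median of −0.17, with 26 of 29 ratios below 0 and none apart, and the tight junction gene Cldn5 was the lowest with 550 and 806 counts (−0.46). Smooth muscle markers were level (0.04). Among 24 lymphocyte and natural killer markers Cd2 (64 and 111, −0.70) and Nkg7 (70 and 113, −0.60) were apart and lower, although the list median was 0.06 (−0.03 with loess scaling). Interferon-stimulated genes were level, with none of 38 apart (−0.03). The part of cell composition in these lists was not tested.

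Hormone, stress and fetal genes gave single calls. Both calls among 10 thyroid hormone genes were deiodinases, enzymes that set the local level of the hormone: Dio2, which makes active thyroid hormone, with 183 counts in TAC Veh and 97 in Sham Veh (1.01, 0.65 to 1.38), and Dio3, which inactivates it, with 105 and 66 (0.76). The other 8 genes had ratios below 0. Serpina3n, a secreted protease inhibitor of the acute phase, had 177 counts in TAC Veh and 86 in Sham Veh (1.13, 0.75 to 1.52), the highest well-counted promoter, and its cluster neighbours Serpina3i (112 and 70, 0.77) and Serpina3b (76 and 48, 0.76) were apart as well. Of 19 fetal and hypertrophy genes, Acta1 and the natriuretic peptide Nppb, with 171 and 118 counts (0.63, 0.28 to 0.98), were apart and the median was 0.01. No promoter was apart among lists of the unfolded protein response (21), heat shock (24), oxidative stress (22), hypoxia (18), clock genes (18), immediate early genes (24), cell cycle (26) or calcineurin and NFAT signalling (22). Heat shock proteins had 19 of 24 ratios below 0 (median −0.17).

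Runx1, a factor of blood and of dedifferentiating cardiomyocytes, was apart at 1 of its promoters, with 541 counts in TAC Veh and 367 in Sham Veh (0.65, 0.46 to 0.85). Its other promoter had 142 and 163 counts (−0.11, −0.44 to 0.23). Of the 107 well-counted promoters apart, 15 belonged to genes with another promoter of distinct counts. Of those 20 other promoters 7 were apart in the same direction and 13 were not apart, of which 9 had a ratio on the same side of 0 as the promoter apart. The other 4, 1 each of Runx1, Lrrc36, Mb and Retreg1, lay on the opposite side. No test of the difference between promoters of a gene was made. Troponin T was lower at both (the other had 184 counts in TAC Veh and 341 in Sham Veh, −0.80), whereas the splicing factor Rbfox1 was lower at 1 promoter (103 and 190, −0.79) and not apart at the other (57 and 67, −0.14).

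Large housekeeping families had medians near 0. Cytosolic ribosomal proteins (88) had a median of 0.00, with Rpl39l apart and higher on 34 and 20 counts. Mitochondrial ribosomal proteins (78, −0.05), translation factors (71, 0.00) and splicing factors (66, −0.01) had none apart, and proteasome subunits (51, −0.07) had 1 apart. Of transcription factor families, the developmental Hox clusters (41, 0.08) had none apart and Zfp zinc fingers (367, −0.04) had 1. Among enzymes that write, read and erase the mark, none of 17 acetyltransferases and bromodomain readers (median 0.00) and none of 18 deacetylases and sirtuins (−0.10) was apart.

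Families silent in heart were frequent on the higher side, where weak promoters in general were also frequent. Of 1060 olfactory receptor promoters 73 (6.89%) were apart and higher and 2 (0.189%) lower (median 0.27), on a median of 19.25 counts. Of 220 vomeronasal receptors 22 (10.0%) were higher and none lower (0.39). Over all promoters 1.93% were higher and 0.583% lower. Among all 2284 promoters with 10.0 to 28.25 mean counts, 176 were higher and 10 lower, and the median was 0.30. With loess scaling 22 olfactory receptors were higher and 21 lower (median 0.01), and 7 vomeronasal receptors were higher and 3 lower (0.07). Receptor scaling gave 26 higher and 20 lower olfactory receptors. Without the 95 receptor promoters 345 promoters remained apart and higher. Late envelope and small proline-rich genes of skin (34) had a median of 0.52 with TMM scaling and 0.27 with loess scaling. Of the 30 highest promoters by the interval bound 23 had a mean count under 30, for example Olfr1113 with 19 counts in TAC Veh and 3 in Sham Veh, whereas 1 of the 30 lowest did. The best counted of these 30 highest were Mir101c, Serpina3n, Dio2 and Thbs4, the last with a mean of 69.25 counts.

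MicroRNA genes had 40 of 1041 promoters (3.84%) apart and higher and 12 (1.15%) apart and lower. Over all promoters these shares were 1.93% and 0.583%. Of the 40, 15 lay in the Dlk1 to Dio3 domain described next, and 25 of 981 lay outside it. In the microRNA family by symbol (1051 promoters) 41 were higher and 12 lower, against 20 and 18 with loess scaling and 8 and 69 with receptor scaling, so the balance of the calls turned with the scaling. Of microRNAs known from heart muscle, chosen here after their values were seen, Mir208b, Mir1a-2 and Mir133a-2 were apart and lower. Mir208b had 146 counts in TAC Veh and 287 in Sham Veh (−0.88, −1.18 to −0.59), and Mir1a-2 had 157 and 329 (−0.97, −1.26 to −0.70). Mir208a, with the same seed as Mir208b, had 130 and 195 (−0.49, −0.82 to −0.17) and was not apart. Mir1a-1 had 319 counts in TAC Veh and 510 in Sham Veh (−0.58, −0.79 to −0.38) and missed 1.5-fold, and Mir133a-2 was apart with 78 and 140 (−0.75). Mir499, from an intron of another myosin gene, had 147 and 181 (−0.21, −0.53 to 0.11). On the higher side, Mir21a, known from cardiac fibroblasts, had 532 counts in TAC Veh and 347 in Sham Veh (0.71, 0.51 to 0.91). The myeloid Mir223 had 69 and 40 (0.88), and Mir101c had 987 and 634 (0.73, 0.59 to 0.88). The median microRNA promoter had a mean count of 110.75, far below Mir101c. The printed miR-101c lies at chr9:3038680-3038698, and whether reads there map to a single place was not examined.

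The imprinted domain between Dlk1 and Dio3 on chromosome 12, which encodes a large microRNA cluster on the maternal chromosome, held 17 of the 440 higher calls. Of its 76 measured promoters 60 were microRNA genes, 17 (22.4%) were apart and higher, none was lower, and the median log2 ratio was 0.33 (0.23 with loess and 0.09 with receptor scaling). Among all 2283 promoters with 28.25 to 56.25 mean counts, a range that includes the domain's median counts in both libraries, 154 were apart and higher and the median was 0.16. In TAC TSA over Sham TSA 31 of the 76 were apart and higher, with a median of 0.57, against 0.46 for all promoters in that range. Higher promoters lay in runs. From Mir337 to Mir431, 7 promoters in a row were apart, with 99 counts in TAC Veh and 66 in Sham Veh at Mir337. A second run reached from Mir495 to Mir300, with Mir667 highest at 71 and 37 counts (1.03, 0.44 to 1.65), and Mir376c inside it was not apart. Neighbours in a run had nearly the same counts in each library, so their windows can share reads and the 17 calls are not 17 separate events. Counts were low, at a median of 55 in TAC Veh and 47 in Sham Veh, and loess scaling gave 10 and receptor scaling 2 apart and higher. The printed seeds of miR-300-3p, miR-376a-3p, miR-376b-3p and miR-667-3p differ from each other.

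**Figure D4:**
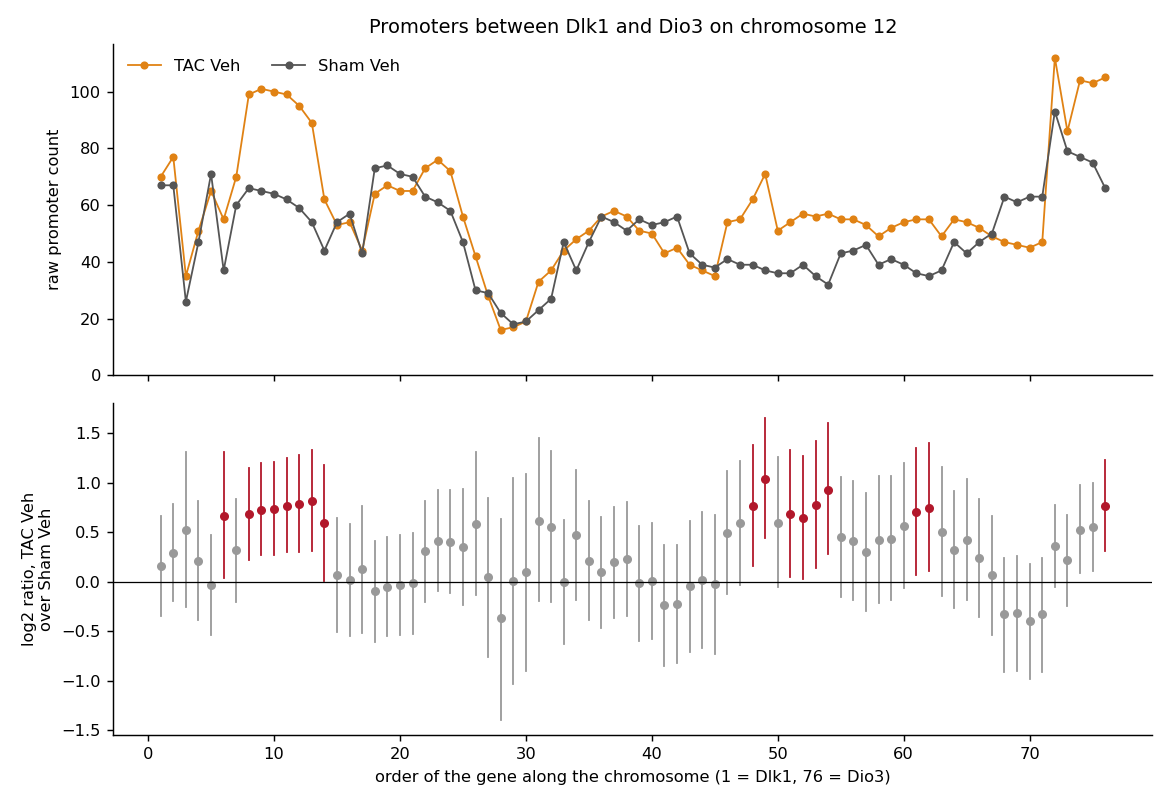
The 76 promoters between Dlk1 and Dio3 stand in gene order (x). The upper panel gives raw counts in TAC Veh (orange) and Sham Veh (grey), and the lower panel the log2 ratio with its 95% interval, with the 17 promoters apart and higher in red. The orange line runs above the grey line at both runs of microRNA genes and at Dio3.

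The TAC over Sham comparison under trichostatin A shares no library with the one under vehicle, and its values for the same promoters are given side by side. There, 7.2% of all promoters were apart and higher and 0.206% lower, 7.4% in all. Kept promoter counts summed to 4891129 in TAC TSA and 7062573 in Sham TSA. Receptor promoters held 0.663% of the counts in TAC TSA and 0.419% in Sham TSA, against 0.495% in TAC Veh and 0.413% in Sham Veh. The part of depth and background in the calls under trichostatin A was not tested. The 75 well-counted promoters lower under vehicle, at a median of −0.67, had a median of −0.06 in TAC TSA over Sham TSA, and 0 of them was apart in either direction. Myh6 had 497 counts in TAC TSA and 665 in Sham TSA (0.04). The 32 well-counted higher promoters, at 0.64 under vehicle, had a median of −0.01 under trichostatin A, with 2 apart and higher and 1 apart and lower. Mir101c had 1263 and 709 counts (1.29, 1.16 to 1.43) and Mir21a had 259 and 566 (−0.67, −0.89 to −0.45) in TAC TSA and Sham TSA. All well-counted promoters had a median of −0.09 in that comparison. The 75 and the 32 were picked by their ratios under vehicle, so their vehicle medians lie far from 0 by the rule. Medians nearer to 0 under trichostatin A can follow from that choice alone. Of the 440 higher promoters of every strength 117 were also apart and higher there, and the median of the lowest count bin there was 0.68. No test of the difference between the comparisons was made.

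**Figure D5:**
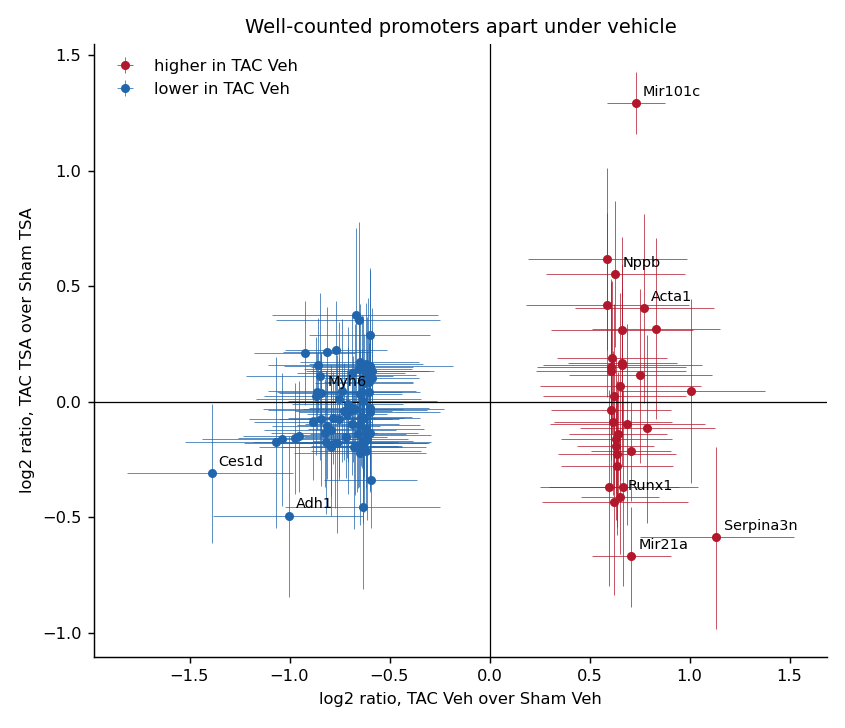
Each point is 1 of the 107 well-counted promoters apart under vehicle, with its log2 ratio of TAC Veh over Sham Veh (x) and of TAC TSA over Sham TSA (y) and 95% counting intervals as thin lines. Blue points (lower under vehicle) lie between −0.49 and 0.38 on the y axis, and red points between −0.67 (Mir21a) and 1.29 (Mir101c).

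Well-counted promoters apart on either side had a lower median number of CpG pairs than all well-counted promoters. RefSeq letters were used for the 14390 genes with a single 300-base window, 250 bases before to 50 after the start. The 38 well-counted lower promoters in that set had a median of 5.5 CpG pairs, the 21 higher ones had 7, and all 9612 well-counted promoters had 20. Of well-counted promoters in that set with 0 to 4 CpG pairs 1.84% were apart and lower and 0.575% higher, against 0.049% and 0.049% of those with 30 or more. Calls also fell with count. At 94.0 to 146.5 mean counts 20 of 2283 promoters were higher and 14 lower, and at 588.25 to 1621.5 mean counts 1 of 2283 was higher and 0 lower. CpG content was not compared at matched counts. The TATA box was found in 31.6% of the lower promoters, 23.8% of the higher ones and 7.53% of all well-counted ones. The E-box CAGCTG was found in 36.8% of the lower promoters, 23.8% of the higher ones and 15.8% of all. The MCAT element was found in 15.8% of the lower, 28.6% of the higher and 12.2% of all promoters. Among well-counted promoters with at most 8 CpG pairs, 28 lower ones and 1795 in all, the TATA box was found in 35.7% and 14.5%, the E-box in 46.4% and 22.7%, and the MCAT element in 21.4% and 18.0%. The MEF2 site was found in 0 of the 38 lower and 0 of the 21 higher promoters and in 0.489% of all. The nuclear receptor element AAGGTCA was found in 3 of the 38 lower promoters, 4 of the 21 higher ones and 3.15% of all. Among well-counted promoters with at most 8 CpG pairs it was found in 7.14% of the lower ones and 7.08% of all. Motifs were searched on both strands and may overlap, and a match is only a match of letters.

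In the authors' deposited table of differing regions there were 1180 regions higher in TAC Veh and 3834 lower, on the mm9 build. In the authors' deposited table higher regions had a median width of 753 bp and covered 1140395 bp, and lower regions had a median width of 1014 bp and covered 5378942 bp. Regions of the authors' deposited table over 3000 bp made up 2.20% of the higher and 8.37% of the lower list. In the authors' deposited table the lower region with the highest score, 598.65, was chr14:55575132-55585582, a stretch of 10451 bp, and the higher region with the highest score, 195.99, was chr11:2999898-3005101. Scores are the authors' own and rank regions within a list. In the authors' deposited table chromosome X held 72 higher regions (6.10%) and 37 lower ones (0.965%), and chromosome Y held 21 higher and 0 lower. Genes in these regions were not assigned, since no annotation of that build was used here. In the promoter counts 0 of 5 chromosome Y promoters were apart. Of 814 chromosome X promoters 23 were higher and 7 lower (median 0.03), against 7 and 21 with loess scaling.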

How the data were processed

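Per the labels, acetylated histone H3 was immunoprecipitated from left ventricle, and libraries were loaded on an Illumina flow cell. Named in the submitters' processing notes are the tools BWA 0.5.9 and MACS 1.4.1 and the build mm9. The authors deposited a table of raw counts, 1 row per RefSeq ID. Their region lists carry a score per region, which the authors deposited without a stated scale. The promoter window, the counting tool, duplicate handling and any input control were not stated in the labels or headers read.

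Of 31594 IDs, 31111 (98.47%) were matched to a GRCm38.p6 name, and the 483 unmatched IDs held 1.13% of counts. For each gene the ID with most counts on average was used. Counts were scaled by TMM over 4 libraries (edgeR 4.0.16, R 4.3.3), and ratios carry exact conditional (Clopper-Pearson) 95% intervals. These cover counting error only and compare 2 libraries. PCR reads without molecular identifiers are not independent molecules, so the intervals can be too narrow even for counting error. A test between conditions was not possible, as each group had 1 library.

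The 63 lists, 97 symbol families and the members were chosen with earlier results of these data known. Named promoters were the 30 lowest and 30 highest apart by the interval bound nearest to equality, the 20 highest with a mean count of at least 100, list and family members apart or nearest to it (up to 4 each way), and members of the marker, fetal, sarcomere and matrix lists. Genes named outside this rule, such as other microRNAs and second promoters, were chosen after their values were seen. Python 3.11.15 with pandas 2.3.3 was used for the rest, DESeq2 1.42.0 for size factors and limma 3.58.1 for loess curves.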

Additional observations from a re-analysis of the deposited data

Results flagged for a closer look

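For 14 promoters the TAC over Sham ratio was apart in opposite directions under vehicle and under trichostatin A. With 1 library per group this difference was not tested. Of the 133 promoters lower under vehicle, 8 were apart and higher under trichostatin A, where 7.2% of all promoters were. Of the 440 promoters higher under vehicle, 6 were apart and lower under trichostatin A, where 0.206% of all promoters were. The log2 ratio under vehicle minus that under trichostatin A is given for each. Higher under vehicle and lower under trichostatin A were F630028O10Rik (2.13), Mir223 (1.93), Ms4a6c (1.44), Serpina3i (1.38), Sash3 (1.38) and Mir21a (1.38). Mir223 had 69 counts in TAC Veh and 40 in Sham Veh, and 28 in TAC TSA and 80 in Sham TSA. Ms4a6c is a macrophage marker, Mir223 is known from myeloid cells, and Sash3 is an adaptor of lymphocytes. Lower under vehicle and higher under trichostatin A were Sprr2i (−2.03), Glyatl3 (−2.02), Nrg3 (−1.94), Spata46 (−1.79), Slc38a5 (−1.49), Egr4 (−1.42), Gm829 (−1.39) and Il3 (−1.21). All 8 of these had at most 105 counts in any library.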

How the results depend on the processing

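The count of higher promoters (440) became 193 with loess scaling, 119 with receptor scaling, 203 after subtraction of the receptor background, 42 at a mean count of at least 100 with scaling refitted, 189 at 2-fold and 53 with a wider interval of higher confidence. The count of lower promoters (133) became 250, 866, 238, 64, 15 and 74 under the same settings. The stricter fold, interval and count minimum call fewer by construction, subtraction left 19661 promoters with a value, and the cause of the other changes was not tested. Library totals, TMM over the 2 libraries, DESeq2 size factors, no count filter and the other choices of RefSeq ID kept both counts within 1.5 times. Leaving out the promoters between Dlk1 and Dio3 left 423 higher and leaving out receptor promoters left 345, alternatives chosen after seeing the data. Of list and family medians relative to all promoters, 1562 of the values recomputed were close to the main one, 26 moved and 9 reversed. After background subtraction the reversed medians were those of neutrophil and mast cell markers (−0.013), Serpinb genes (−0.027), defensins (−0.127) and the urinary protein and prolactin families (−0.122). At a mean count of at least 100 they were Serpinb (−0.065), defensins (−0.072), olfactory receptors (−0.105) and the urinary protein families (−0.057). With the ID of lowest count the Runx family (−0.088) and Runx1 (−0.107) reversed, as another promoter was read. No paired analysis was possible because each group has 1 library, and no replicate could be left out. Fold and interval thresholds do not apply to list medians. At promoters with few counts, a 1.5-fold difference was not detectable at this depth.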
